A study of Mus musculus with 12 samples.

Results

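The potassium channel genes of the developing mouse cortex were followed in RNA sequencing (RNA-seq) of sorted cells. They were taken as the genes of the deposited coding gene table whose symbol begins with Kcn, the prefix of potassium channel subunits. An auxiliary subunit gene with this prefix was left out by name beforehand, and the rest number 41 of 4859 genes. The values, counts and sums below are over 38 of these, called the members. They were chosen by name and not by their values, but the table itself holds only genes that the authors had called differential on these libraries, so the direction of any group of members is not independent evidence. The cells were dissociated from the cerebral cortex of Tg(Ebf2-EGFP)FB58Gsat mouse embryos at 3 embryonic stages (E11.5, E13.5, E15.5, with E for embryonic day), and were sorted by fluorescence into Ebf2-EGFP+ and Ebf2-EGFP- cells. The Ebf2-EGFP transgene, a GENSAT line in which Ebf2 regulatory sequence drives a green fluorescent protein, was carried by the embryos that gave both populations. Per the study, EGFP marks early-born cortical neurons, which at E11.5 are mostly preplate neurons (subplate and Cajal-Retzius, CR, neurons) and later mostly CR neurons. The Ebf2-EGFP- cells are the rest of the dissociated cortex. The study describes them as mostly or wholly progenitor cells at E11.5, joined by cortical plate neurons at E13.5 and E15.5. Each of the 6 groups (3 stages by 2 populations) had 2 libraries, described as biological replicates, and each library came from several embryos pooled.

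Potassium channels let potassium leave the cell along its gradient, which sets the resting potential, ends action potentials and limits repetitive firing. Voltage-gated (Kv) channels open on depolarisation, inward rectifiers (Kir) and 2-pore-domain channels carry current near rest, and the BK, SK and sodium-activated channels open when calcium or sodium enters the cell. Immature neurons acquire these conductances stepwise, while glial cells are known for a large resting potassium conductance.

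The values are FPKM (sequenced fragments scaled by the length of the transcript and by the mapped fragments of the library), so levels can be compared between genes, and no read total of each library is given in the sources used here, nor could whole reads be recovered from the values. Replicate libraries correlated at 0.981 to 0.992 (Pearson's r across all genes of the table, log2 scale). No member was at 0 in any library. Between replicates, the members differed by a median of 0.118 to 0.337 on the log2(FPKM + 1) scale in the 6 groups. The 0.337 was that of the E15.5 Ebf2-EGFP+ pair, in which all genes differed by a median of 0.187. The largest gap of a member, 1.07, was that of Kcnk9 in the same pair. CR markers followed the sort: the summed FPKM of 7 CR markers was 172 to 1157 in the Ebf2-EGFP+ libraries and 5.24 to 18.3 in the Ebf2-EGFP- libraries. The E15.5 Ebf2-EGFP+ pair was itself apart, at 539 and 1157. Other cell types moved with the populations as well, in either direction. The sums of 8 cortical plate or subplate markers were 963 to 974.5 against 486 to 606.5 at E13.5. They overlapped at E15.5 (732 to 1108 against 733 to 911). For 4 intermediate progenitor markers they were 194 to 202 against 48.9 to 55.6 at E11.5 and 62.4 to 94.4 against 225 to 309 at E13.5. The summed FPKM of 7 radial glia markers was 406 to 430 in Ebf2-EGFP+ against 1328 to 1610 in Ebf2-EGFP- libraries at E11.5 and 86.3 to 149 against 439 to 794 at E15.5. For 8 ganglionic eminence or interneuron markers the sums were 11.7 to 14.9 against 180 to 239 at E11.5 and 2.67 to 3.42 against 75.4 to 86.3 at E15.5, with Dlx6 at 0 in the E15.5 Ebf2-EGFP+ libraries. The part of these cell types in the channel results was not tested, and in bulk libraries fewer cells that express a gene cannot be told apart from less RNA per cell.

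**Figure D1:**
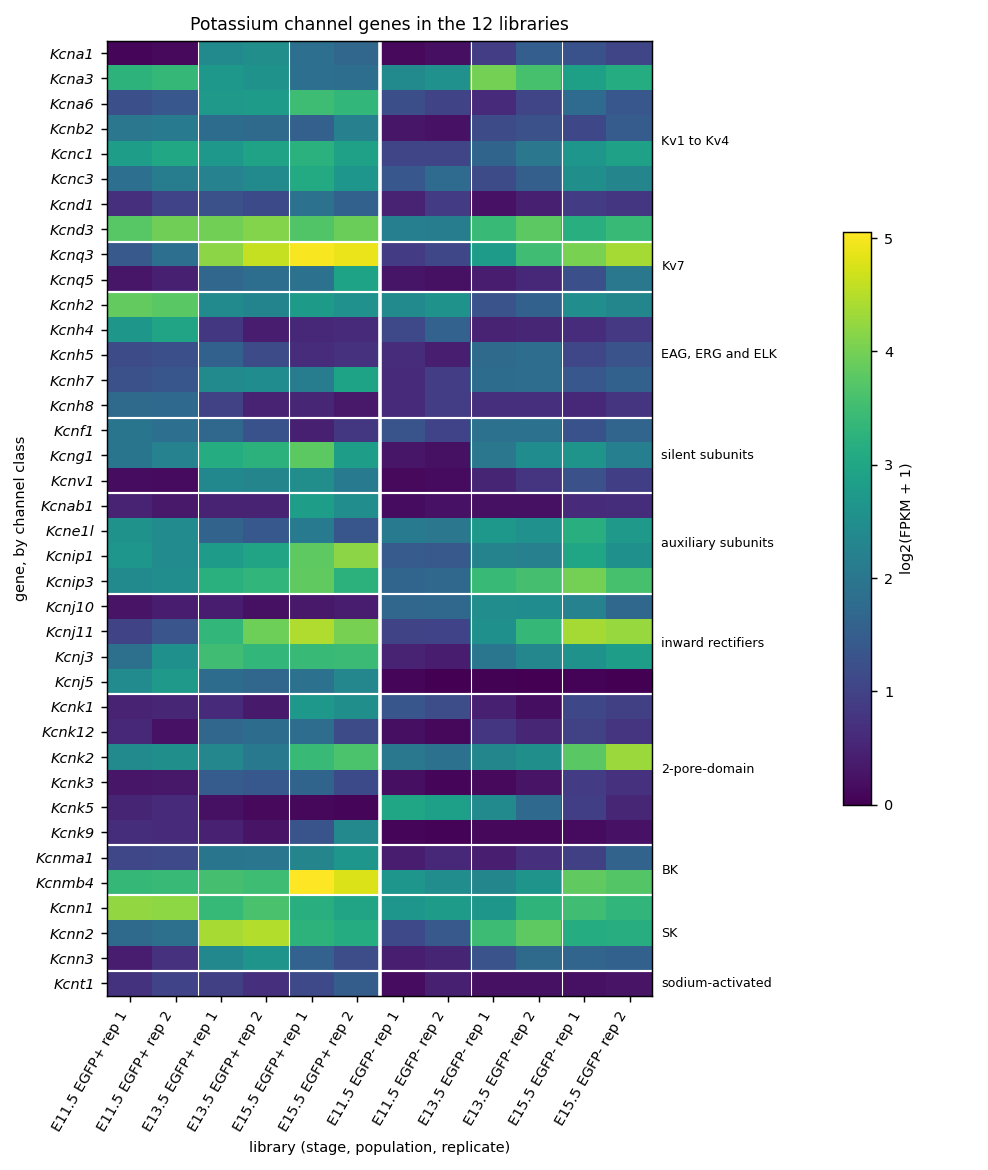
Heat map of log2(FPKM + 1) for the 38 potassium channel genes (rows, grouped by channel class) in the 12 libraries (columns, by population, stage and replicate). Kcnq3 goes from 0.871 to 2.62 FPKM at E11.5 to 15.4 to 31.1 FPKM at E15.5, and Kcnj5 is near 0 in all 6 Ebf2-EGFP- libraries.

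The channel genes summed to more at later stages in both populations, and at each stage to more in the Ebf2-EGFP+ than in the Ebf2-EGFP- libraries. Summed over the 38 members, the Ebf2-EGFP+ libraries held 128 and 139.6 FPKM at E11.5, 185 and 199 FPKM at E13.5 and 256 and 238 FPKM at E15.5. The Ebf2-EGFP- libraries held 57.8 and 60.1 FPKM, 113 and 135 FPKM, and 173 and 175 FPKM at the same stages. At no stage did the populations overlap. The number of members with a mean of at least 1 FPKM was 25, 30 and 32 in the Ebf2-EGFP+ population at the 3 stages and 19, 24 and 28 in Ebf2-EGFP- cells. In E11.5 Ebf2-EGFP+ cells the highest means were those of Kcnn1 (17.3 and 17.7 FPKM), Kcnd3 (12.3 and 14.6 FPKM) and Kcnh2 (12.6 and 13.3 FPKM), and the ranges of the last pair overlapped. At E15.5 they were those of Kcnq3 (29.1 and 31.1 FPKM) and Kcnmb4 (26.6 and 32.3 FPKM), which overlapped as well. In Ebf2-EGFP- cells the highest mean was that of Kcnk5 at E11.5 (6.22 and 6.83 FPKM), of Kcna3 at E13.5 (11.1 and 14.9 FPKM) and of Kcnj11 at E15.5 (18.3 and 19.6 FPKM), and the ranges of the last pair overlapped those of the genes next in order (Kcnn2 and Kcnd3 at E13.5, Kcnq3 and Kcnk2 at E15.5).

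**Figure D2:**
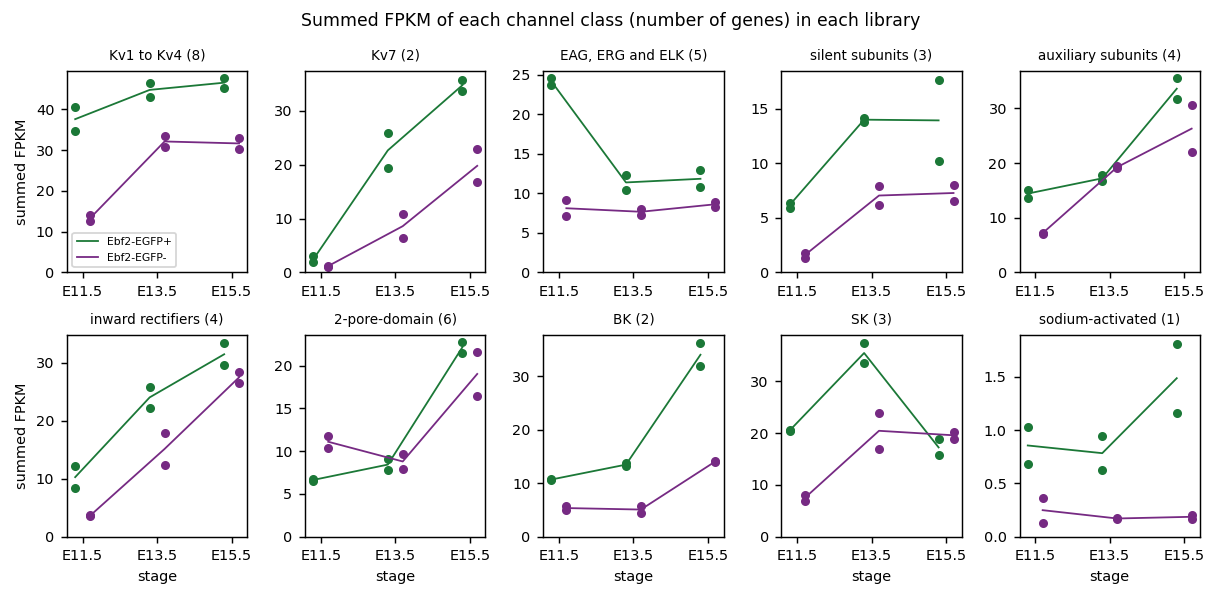
Summed FPKM of each channel class (number of genes in parentheses) in each library, by stage on the horizontal axis. Points are libraries and lines join the 2-library means of Ebf2-EGFP+ (green) and Ebf2-EGFP- (purple) cells, and Kv7 reaches 33.8 and 35.8 FPKM in the E15.5 Ebf2-EGFP+ libraries.

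The populations were compared at each stage in a limma fit over the whole table, in which a call needed an adjusted p under 0.05. Differences below are Ebf2-EGFP+ minus Ebf2-EGFP-, or E15.5 minus E11.5, on the log2(FPKM + 1) scale, given ± the standard error (SE) of the fit, with 2 libraries per group. This scale understates the change of genes below about 1 FPKM. At E11.5, 23 of 38 members were higher in Ebf2-EGFP+ cells and 3 were lower, where 36.8% of all genes in the table were called higher and 44.9% lower. At E13.5, 25 were higher and 5 lower (32.1% and 43.5% of all genes), and at E15.5, 21 were higher and 6 lower (25.8% and 31.6%). The median difference of the members was 0.57, 0.66 and 0.59 at the 3 stages, and that of all genes was -0.19, -0.19 and -0.11. Members higher at all 3 stages were Kcnb2, Kcnd3, Kcng1, Kcnh7, Kcnip1, Kcnj3, Kcnj5, Kcnma1, Kcnmb4, Kcnq3 and Kcnt1, which is 11 of 38 (14.6% of all genes), and Kcnj10 and Kcnk5 were lower at all 3 (21.8% of all genes). The calls at all 3 stages held under every alternative for Kcnj5 and Kcnmb4 among the former and for Kcnj10 among the latter.

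From E11.5 to E15.5, 24 members rose and 10 fell in Ebf2-EGFP+ cells, with 33.3% of all genes called higher and 42.1% lower. In Ebf2-EGFP- cells 26 rose and 2 fell (37.7% and 47.6% of all genes). The median change of the members was 1.06 and 0.76 in the populations, respectively, and that of all genes was -0.18 and -0.32. The same E11.5 and E15.5 libraries enter both the stage and the population comparisons. In the Ebf2-EGFP- libraries 8 cortical plate or subplate markers summed to 86.9 to 88.1 FPKM at E11.5 and 733 to 911 FPKM at E15.5, and 6 general neuron markers to 576 to 628 FPKM and 1724 to 2168 FPKM. In the Ebf2-EGFP+ libraries the cortical plate or subplate markers summed to 223 to 279 FPKM at E11.5 and 732 to 1108 FPKM at E15.5, the CR markers to 246 to 259 FPKM and 539 to 1157 FPKM, and 5 markers of dividing cells to 143 to 163 FPKM and 5.48 to 5.88 FPKM. The part of these markers in the rises and falls of the channel genes was not tested.

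**Figure D3:**
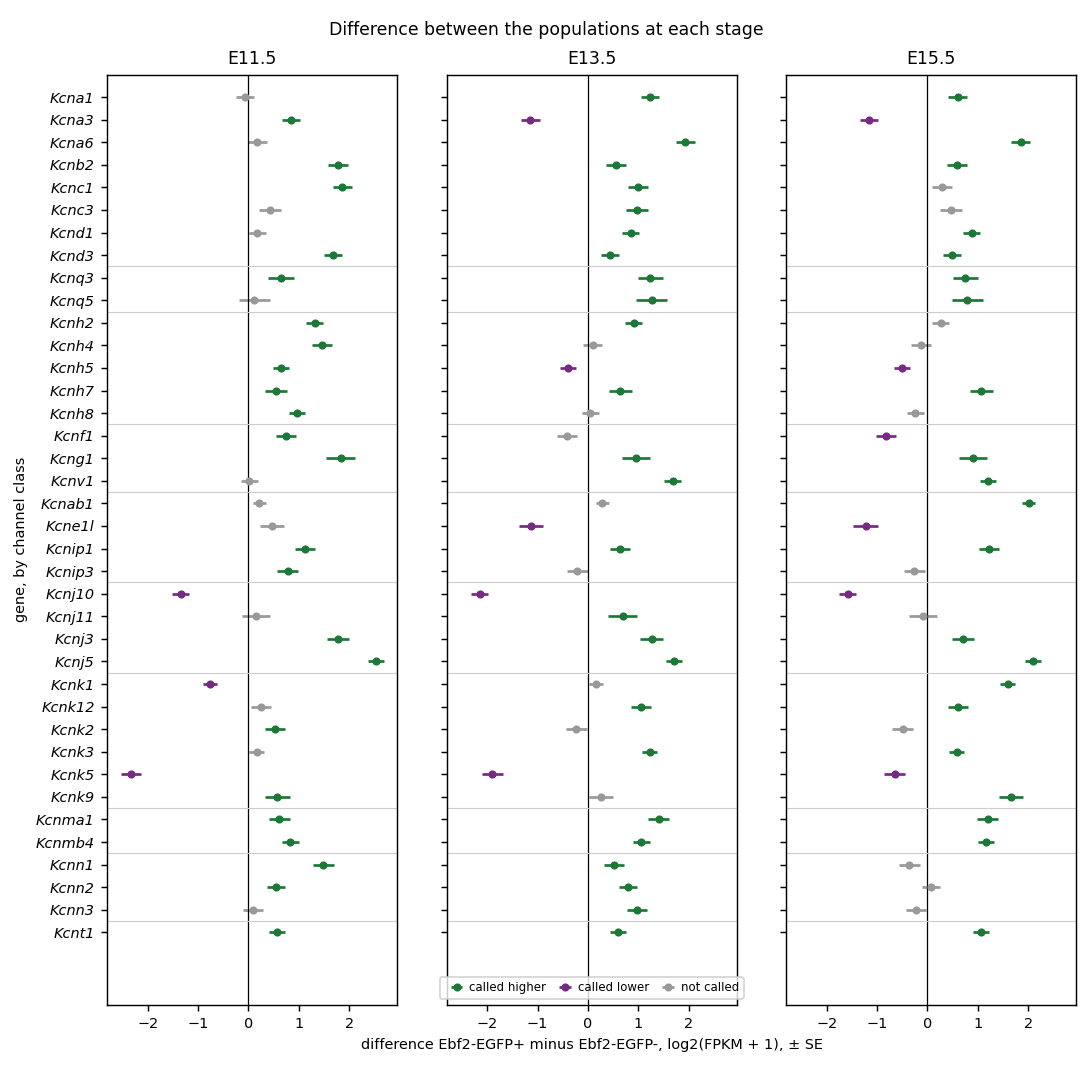
Difference between the populations for each of the 38 genes (rows, grouped by channel class) at each of the 3 stages, as Ebf2-EGFP+ minus Ebf2-EGFP- on the log2(FPKM + 1) scale, with points for the fitted difference and bars for its SE. Green points are called higher, purple lower and grey not called, and Kcnj5 (2.54, 1.7 and 2.09) lies right of 0 and Kcnj10 (-1.34, -2.15 and -1.59) left of it at every stage.

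Promoter sequence was available in RefSeq for 26 of the 38 members, with 37 start sites. The 250 bases before each start site were searched on both strands for CCCNNGGG, the core that EBF factors are known to bind and that reads the same on either strand. The core was in 7 of 37 member windows (18.9%) and in 11.8% of the 32851 windows of all genes. The E-box CAGCTG, a core of proneural factor sites, was in 24.3% of member windows against 13% of all and the TATA box letters TATAAA were in 0 of 37 against 12.4%. Member windows were also richer in G and C, with a median of 62% against 52.4%, and GC-rich windows hold GC-rich letters more often, so the counts are a description of the letters. Shown are windows of a pair of genes that fell with stage in Ebf2-EGFP+ cells and hold the core (Kcna3, 3 matches, chr3:107035912-107036161, plus strand, and Kcnh8, 1 match, chr17:52602459-52602708, plus strand) and of a gene higher and a gene lower in Ebf2-EGFP+ cells throughout, which hold none (Kcnj5, chr9:32344345-32344594, minus strand, and Kcnj10, chr1:172340960-172341209, plus strand). They were chosen after their values were seen, and the core does not divide the members by direction: Kcnma1 and Kcnmb4, higher in Ebf2-EGFP+ cells at all 3 stages, hold 4 matches and 1 match. Sequences are from RefSeq on GRCm38.p6, 5′ to 3′ on the strand of the gene, with the core in capitals.
Kcna3: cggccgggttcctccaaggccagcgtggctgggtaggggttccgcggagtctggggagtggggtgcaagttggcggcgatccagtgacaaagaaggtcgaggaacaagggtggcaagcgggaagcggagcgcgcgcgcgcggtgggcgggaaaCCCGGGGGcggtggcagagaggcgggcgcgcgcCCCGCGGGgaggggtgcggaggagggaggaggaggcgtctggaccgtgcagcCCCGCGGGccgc
Kcnh8: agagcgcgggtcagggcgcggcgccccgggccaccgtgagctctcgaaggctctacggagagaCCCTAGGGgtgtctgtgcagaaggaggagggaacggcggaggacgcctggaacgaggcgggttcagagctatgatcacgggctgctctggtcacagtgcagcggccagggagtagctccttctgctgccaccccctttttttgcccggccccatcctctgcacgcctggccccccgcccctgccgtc
Kcnj5: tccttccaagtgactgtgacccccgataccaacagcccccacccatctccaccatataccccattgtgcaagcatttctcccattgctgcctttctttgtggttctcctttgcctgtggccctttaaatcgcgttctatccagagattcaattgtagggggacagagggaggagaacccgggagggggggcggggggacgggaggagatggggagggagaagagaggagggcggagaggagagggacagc
Kcnj10: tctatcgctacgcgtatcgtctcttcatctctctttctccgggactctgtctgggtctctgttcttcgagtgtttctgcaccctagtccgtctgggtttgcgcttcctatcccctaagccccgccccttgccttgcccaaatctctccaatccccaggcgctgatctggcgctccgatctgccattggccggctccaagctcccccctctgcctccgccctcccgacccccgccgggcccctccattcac

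The Kv7 genes encode the subunits of the M-current, which opens slowly below the firing threshold and restrains repetitive spikes. Both members of the group, Kcnq3 and Kcnq5, were higher in the Ebf2-EGFP+ population at E13.5 and E15.5 (32.1% and 25.8% of all genes) and rose in both populations.
Kcnq3 began at 1.65 and 2.62 FPKM in the Ebf2-EGFP+ libraries and 0.871 and 1.1 FPKM in the Ebf2-EGFP- libraries at E11.5 and reached 17.2 and 23.4 FPKM against 5.98 and 10.4 FPKM at E13.5 and 31.1 and 29.1 FPKM against 15.4 and 19.8 FPKM at E15.5. In each population both libraries of a stage were above both of the stage before, and the Ebf2-EGFP+ libraries were the higher ones throughout. On the log2(FPKM + 1) scale the rise was the largest of all members in Ebf2-EGFP+ cells (3.33 ± 0.25, limma adjusted p = 5.67e-07) and second to that of Kcnj11 in Ebf2-EGFP- cells (3.22 ± 0.25, limma adjusted p = 5.06e-07). By the ratio of means in Ebf2-EGFP+ cells, 14.1 for Kcnq3, genes that began near 0 rose more, among them Kcnv1 (35) and Kcna1 (34.5). The difference between the populations was 0.64 ± 0.25, limma adjusted p = 0.0326 at E11.5 and 0.75 ± 0.25, limma adjusted p = 0.0239 at E15.5, and the Kcnq3 calls at these stages were lost without 1 library. At E11.5 the value was 0.42 without Ebf2-EGFP+ replicate 2, 0.56 without Ebf2-EGFP- replicate 1 and 0.72 without Ebf2-EGFP- replicate 2, and at E15.5 it was 0.7 and 0.8 without Ebf2-EGFP+ replicate 1 and 2 and 0.58 without Ebf2-EGFP- replicate 1.
The rise of Kcnq5 was 2.04 ± 0.3 in Ebf2-EGFP+ and 1.37 ± 0.3 in Ebf2-EGFP- cells. It was at 2.72 and 6.68 FPKM against 1.35 and 3.04 FPKM at E15.5, where its ranges overlapped between the populations, and its call there (0.79 ± 0.3, limma adjusted p = 0.0396) was lost in 9 of 17 alternatives, with the lowest values without Ebf2-EGFP+ replicate 2 (0.27, limma adjusted p = 0.397) or Ebf2-EGFP- replicate 1 (0.4, limma adjusted p = 0.313). The others were the pseudocount of 0.1, each E11.5 library left out and each E13.5 Ebf2-EGFP- library left out.

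Among the 8 members of the Kv1 to Kv4 group, 4, 7 and 5 were higher in the Ebf2-EGFP+ population at the 3 stages and 0, 1 and 1 were lower. Of all genes, 36.8%, 32.1% and 25.8% were called higher and 44.9%, 43.5% and 31.6% lower. The Kv1 genes (Kcna), whose channels open at low voltage and are known from axons, went different ways. Kcna6 was at 1.34 and 1.6 FPKM in the Ebf2-EGFP+ libraries and 1.32 and 1.05 FPKM in the Ebf2-EGFP- libraries at E11.5, which did not pass (0.18 ± 0.19, limma adjusted p = 0.404). It was then at 5.62 and 5.96 FPKM against 0.527 and 1.07 FPKM at E13.5 (1.93 ± 0.19, limma adjusted p = 9.66e-06) and at 10.2 and 9.19 FPKM against 2.39 and 1.58 FPKM at E15.5 (1.85 ± 0.19, limma adjusted p = 1.7e-05). Kcna6 thus rose in Ebf2-EGFP+ cells. The Ebf2-EGFP- libraries lay at 0.527 to 2.39 FPKM, with both E15.5 libraries above both E11.5 libraries without passing (0.44 ± 0.19, limma adjusted p = 0.0504, a value that passed in other settings, among them median-of-ratios scaling, 0.58, limma adjusted p = 0.0102). At E13.5 the ratio of means, 7.25, was 11 without Ebf2-EGFP- replicate 2. Antisense gene models cover 39.6% of its exon bases, and because the strand of the libraries is not stated their reads cannot be told apart.
Kcna3 crossed over. It was at 8.66 and 9.31 FPKM in the Ebf2-EGFP+ libraries and 4.3 and 4.88 FPKM in the Ebf2-EGFP- libraries at E11.5 (0.84 ± 0.18, limma adjusted p = 0.000983), at 5.51 and 5.07 FPKM against 14.9 and 11.1 FPKM at E13.5 (-1.14 ± 0.18, limma adjusted p = 0.000161) and at 2.61 and 2.56 FPKM against 6.28 and 7.73 FPKM at E15.5 (-1.15 ± 0.18, limma adjusted p = 0.000253). The Ebf2-EGFP+ libraries were the higher pair at E11.5 and the lower pair at both later stages, with no overlap. The change of the difference, -1.99 ± 0.25, limma adjusted p = 8.18e-05, was the largest decrease among the members. Kcna1 was below 0.16 FPKM in all 4 E11.5 libraries and was higher in both populations at E15.5, at 2.61 and 2.16 FPKM against 1.41 and 1.07 FPKM. In Ebf2-EGFP+ cells its highest level was at E13.5, at 4.26 and 4.67 FPKM against 0.882 and 1.87 FPKM (1.23 ± 0.18, limma adjusted p = 0.000112).

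Of 5 members of the Kv2, Kv3 and Kv4 groups, Kcnb2, Kcnc1 and Kcnd3 were higher in Ebf2-EGFP+ cells already at E11.5. Kcnc1, a Kv3 gene known for the fast repolarisation of rapidly firing neurons, was at 6.1 and 7.16 FPKM in the Ebf2-EGFP+ libraries and 1.09 and 1.09 FPKM in the Ebf2-EGFP- libraries at E11.5 (1.86 ± 0.19, limma adjusted p = 5.11e-06). At E15.5 it was at 8.33 and 6.46 FPKM against 5.28 and 6.45 FPKM (0.29 ± 0.19, limma adjusted p = 0.223), where the lower Ebf2-EGFP+ and the higher Ebf2-EGFP- library were nearly equal. Kcnc1 rose in Ebf2-EGFP- cells (1.71 ± 0.19, limma adjusted p = 7.45e-06), while the change in Ebf2-EGFP+ cells, 0.13 ± 0.19, did not pass. Kcnd3, a Kv4 gene of the transient A-type current, was at 12.3 and 14.6 FPKM against 3.52 and 3.42 FPKM at E11.5 (1.69 ± 0.18, limma adjusted p = 5.44e-06) and at 11.9 and 14.1 FPKM against 8.14 and 9.75 FPKM at E15.5 (0.49 ± 0.18, limma adjusted p = 0.0328). Its difference shrank as well (-1.2 ± 0.25, limma adjusted p = 0.00191). The Kcnd3 call at E15.5 was lost without Ebf2-EGFP+ replicate 2 (0.38, limma adjusted p = 0.173) or Ebf2-EGFP- replicate 1 (0.37, limma adjusted p = 0.181), and that at E13.5 was lost without any 1 of 7 libraries.
Kcnb2, a delayed rectifier of neuronal cell bodies, was at 3 and 3.3 FPKM against 0.238 and 0.183 FPKM at E11.5 (1.78 ± 0.2, limma adjusted p = 9.15e-06), a ratio of means of 15 that came down to 1.9 at E15.5 (0.59 ± 0.2, limma adjusted p = 0.0255). The E15.5 difference of Kcnb2 did not pass without Ebf2-EGFP+ replicate 2 (0.27, limma adjusted p = 0.247) or Ebf2-EGFP- replicate 1 (0.41, limma adjusted p = 0.179).

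The EAG, ERG and ELK genes (Kcnh) encode voltage-gated channels related to the cardiac repolarisation channel ERG. All 5 members were higher in the Ebf2-EGFP+ population at E11.5 (36.8% of all genes), and at E15.5 Kcnh7 was higher and Kcnh5 lower. The Kcnh7 call at E11.5 was lost in 5 of 17 alternatives (lowest value 0.39, without Ebf2-EGFP- replicate 1, limma adjusted p = 0.23, and also without either Ebf2-EGFP+ library of the stage or either E13.5 Ebf2-EGFP- library). The Kcnh5 call at E15.5 was lost without Ebf2-EGFP+ replicate 1 (-0.47, limma adjusted p = 0.0729) or Ebf2-EGFP- replicate 2 (-0.4, limma adjusted p = 0.0925). Within Ebf2-EGFP+ cells, 4 of the 5 fell from E11.5 to E15.5, where 42.1% of all genes fell. The summed level of all 5, with Kcnh7 included, went from 23.6 and 24.6 FPKM to 10.7 and 12.9 FPKM. Kcnh4, of the ELK group, was at 5.38 and 6.75 FPKM in the Ebf2-EGFP+ libraries and 1.17 and 2.03 FPKM in the Ebf2-EGFP- libraries at E11.5 (1.46 ± 0.19, limma adjusted p = 2.73e-05) and at 0.507 and 0.548 FPKM against 0.557 and 0.787 FPKM at E15.5, where the populations were close (-0.13 ± 0.19, limma adjusted p = 0.585). Its fall in Ebf2-EGFP+ cells was the largest among the members (-2.2 ± 0.19, limma adjusted p = 1.46e-06), and the fall in Ebf2-EGFP- cells (-0.62 ± 0.19, limma adjusted p = 0.00964) did not pass without E11.5 Ebf2-EGFP- replicate 2 (-0.38, limma adjusted p = 0.118) or E15.5 Ebf2-EGFP- replicate 1 (-0.52, limma adjusted p = 0.057). Kcnh8, also of the ELK group, was at 2.35 and 2.33 FPKM in Ebf2-EGFP+ libraries at E11.5 and 0.46 and 0.273 FPKM at E15.5 (-1.29 ± 0.16, limma adjusted p = 2.47e-05). Kcnh2, which encodes ERG, was at 13.3 and 12.6 FPKM against 4.27 and 4.98 FPKM at E11.5 (1.31 ± 0.17, limma adjusted p = 2.47e-05) and 5.78 and 4.86 FPKM against 4.54 and 3.99 FPKM at E15.5 (0.26 ± 0.17, limma adjusted p = 0.205, and 0.44, limma adjusted p = 0.0352 with median-of-ratios scaling). The exception was Kcnh7, another ERG gene, which rose in Ebf2-EGFP+ cells (1.23 ± 0.22, limma adjusted p = 0.000388) and was at 3.42 and 6.59 FPKM against 1.59 and 1.95 FPKM at E15.5.

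The silent subunits Kcnf1, Kcng1 and Kcnv1 form no channel alone and are known to modify other Kv channels. Kcng1 and Kcnv1 rose in both populations, whereas Kcnf1 fell in Ebf2-EGFP+ cells. Kcng1 was at 2.9 and 3.7 FPKM in the Ebf2-EGFP+ libraries and 0.233 and 0.175 FPKM in the Ebf2-EGFP- libraries at E11.5 (1.83 ± 0.28, limma adjusted p = 9.27e-05). At E15.5 it was at 12.7 and 6.13 FPKM against 5.17 and 3.53 FPKM, and both Ebf2-EGFP+ libraries were above both others. That later difference of Kcng1, 0.9 ± 0.28, limma adjusted p = 0.0174, did not pass without Ebf2-EGFP+ replicate 1 (0.43, limma adjusted p = 0.192; ratio of means 1.41 in place of 2.16) or Ebf2-EGFP- replicate 2 (0.68, limma adjusted p = 0.1). Kcnv1 was at 0.0942 to 0.12 FPKM in the 4 libraries of E11.5 and at 4.12 and 3.95 FPKM against 0.434 and 0.717 FPKM at E13.5 (1.68 ± 0.16, limma adjusted p = 8.31e-06), and it was still higher at E15.5 (1.2 ± 0.16, limma adjusted p = 0.000102). Its level appeared at E13.5 in the Ebf2-EGFP+ libraries and rose less in the others from E11.5 to E15.5 (2.14 ± 0.16 and 0.96 ± 0.16, a change of the difference of 1.18 ± 0.23, limma adjusted p = 0.00122). Kcnf1 went from 2.92 and 2.58 FPKM against 1.48 and 1.03 FPKM at E11.5 (0.74 ± 0.2, limma adjusted p = 0.0046) to 0.353 and 0.768 FPKM against 1.42 and 2.12 FPKM at E15.5 (-0.83 ± 0.2, limma adjusted p = 0.00422), so the order of the populations turned. The E15.5 ratio of means of Kcnf1, 0.317, was 0.2 without Ebf2-EGFP+ replicate 2.

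Of the 4 auxiliary subunit genes among the members, all rose in Ebf2-EGFP- cells (37.7% of all genes) and 3 rose in Ebf2-EGFP+ cells (33.3% of all genes). Kcnab1 encodes a cytoplasmic beta subunit that speeds the inactivation of Kv1 channels. It was at 0.42 and 0.418 FPKM in the Ebf2-EGFP+ libraries and 0.164 and 0.169 FPKM in the Ebf2-EGFP- libraries at E13.5, which did not pass (0.28 ± 0.13, limma adjusted p = 0.0629, but 0.96, limma adjusted p = 0.00855 with a pseudocount of 0.1), and at 6.07 and 4.58 FPKM against 0.532 and 0.577 FPKM at E15.5 (2.01 ± 0.13, limma adjusted p = 8.2e-07). Kcnab1 was thus below 0.6 FPKM in every library apart from the E15.5 Ebf2-EGFP+ pair, and its difference grew (1.8 ± 0.18, limma adjusted p = 1.87e-05). Kcnip1 and Kcnip3 encode calcium-binding proteins (KChIPs) that join Kv4 channels. Kcnip3 was at 4.35 and 4.56 FPKM against 2.13 and 2.23 FPKM at E11.5 (0.78 ± 0.21, limma adjusted p = 0.00454) and at 13.2 and 8.45 FPKM against 15.1 and 11 FPKM at E15.5 (-0.26 ± 0.21, limma adjusted p = 0.298), with overlapping ranges. Kcnip1 was higher at all 3 stages and was at 13 and 17.1 FPKM against 6.94 and 4.84 FPKM at E15.5 (1.23 ± 0.2, limma adjusted p = 0.000311). Kcne1l, now called Kcne5, encodes a single-pass subunit of the KCNE family. At E11.5 its Ebf2-EGFP+ pair was the higher, at 5.07 and 4.39 FPKM against 3.25 and 3.02 FPKM, without passing (0.47 ± 0.24, limma adjusted p = 0.0907). It was at 2.07 and 1.61 FPKM against 5.52 and 4.89 FPKM at E13.5 (-1.13 ± 0.24, limma adjusted p = 0.00129) and 3.25 and 1.57 FPKM against 8.11 and 5.56 FPKM at E15.5 (-1.23 ± 0.24, limma adjusted p = 0.0012), lower in the Ebf2-EGFP+ population at both, and the ratio of means at E15.5, 0.352, was 0.229 without Ebf2-EGFP+ replicate 1. The change of the Kcne1l difference from E11.5 to E15.5 was -1.7 ± 0.34, limma adjusted p = 0.00145.

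The inward rectifiers held the member with the largest difference between the populations. Kcnj5 encodes GIRK4 and Kcnj3 encodes GIRK1, subunits of channels that G-protein-coupled receptors open. Kcnj5 was at 4.4 and 5.62 FPKM in the Ebf2-EGFP+ libraries and 0.0523 and 0.00868 FPKM in the Ebf2-EGFP- libraries at E11.5 (2.54 ± 0.16, limma adjusted p = 2.11e-07), at 2.43 and 2.19 FPKM against 0.0266 and 0.00996 FPKM at E13.5 (1.7 ± 0.16, limma adjusted p = 6.81e-06) and at 2.76 and 4.08 FPKM against 0.04 and 0.0123 FPKM at E15.5 (2.09 ± 0.16, limma adjusted p = 2.25e-06). All 6 Ebf2-EGFP- libraries lay at or below 0.0523 FPKM, so ratios of means are set by values near 0: the ratio of 164 at E11.5 was 578 without Ebf2-EGFP- replicate 1 and 95.7 without replicate 2, that of 127 at E13.5 was 232 without Ebf2-EGFP- replicate 1, and that of 131 at E15.5 was 279 and 85.6 without Ebf2-EGFP- replicate 1 and 2. Within Ebf2-EGFP+ cells Kcnj5 was lower at E15.5 than at E11.5 (-0.45 ± 0.16, limma adjusted p = 0.0218), a call lost without E11.5 replicate 2 (-0.31, limma adjusted p = 0.16), without E15.5 replicate 1 (-0.23, limma adjusted p = 0.208) and with median-of-ratios scaling (-0.26, limma adjusted p = 0.156). Kcnj3 was at 2.66 and 4.77 FPKM against 0.392 and 0.3 FPKM at E11.5 (1.77 ± 0.22, limma adjusted p = 1.88e-05) and at 9.54 and 9.96 FPKM against 5.06 and 6.09 FPKM at E15.5 (0.71 ± 0.22, limma adjusted p = 0.0165). Kcnj3, of whose exon bases 31.1% are covered by a gene on the opposite strand, rose in both populations and more in Ebf2-EGFP- cells, where Kcnj5 stayed near 0 (change of the Kcnj3 difference -1.06 ± 0.31, limma adjusted p = 0.0124, and -0.73, limma adjusted p = 0.0598 without E11.5 Ebf2-EGFP+ replicate 2). The smaller E15.5 difference of Kcnj3 did not pass without Ebf2-EGFP+ replicate 1 or 2 (0.74 and 0.68) or Ebf2-EGFP- replicate 1 (0.60).
Kcnj11 encodes a Kir6 pore, that of the ATP-sensitive channel that ties excitability to metabolism. It was at 1.05 and 1.51 FPKM in the Ebf2-EGFP+ libraries and 1.06 and 1.02 FPKM in the Ebf2-EGFP- libraries at E11.5 and at 20.8 and 15.3 FPKM against 19.6 and 18.3 FPKM at E15.5. The populations overlapped at E15.5 (-0.08 ± 0.28, limma adjusted p = 0.815) and both rose (3.05 ± 0.28, limma adjusted p = 2.16e-06 in Ebf2-EGFP+ and 3.29 ± 0.28, limma adjusted p = 9.27e-07 in Ebf2-EGFP- cells). At E13.5 Kcnj11 was higher in Ebf2-EGFP+ cells (0.69 ± 0.28, limma adjusted p = 0.0419) with overlapping ranges, and the call was lost in 6 of 17 alternatives: without Ebf2-EGFP+ replicate 2 (0.39, limma adjusted p = 0.304), without Ebf2-EGFP- replicate 1 (0.26, limma adjusted p = 0.419) and, narrowly, without any 1 of the 4 E11.5 libraries.
Kcnj10 encodes the Kir4 channel known for potassium uptake by glia. It was at 0.198 and 0.323 FPKM in the Ebf2-EGFP+ libraries and 2.17 and 2.21 FPKM in the Ebf2-EGFP- libraries at E11.5 (-1.34 ± 0.17, limma adjusted p = 2.04e-05), 0.328 and 0.177 FPKM against 4.6 and 4.47 FPKM at E13.5 (-2.15 ± 0.17, limma adjusted p = 3.56e-06) and 0.274 and 0.325 FPKM against 3.71 and 2.23 FPKM at E15.5 (-1.59 ± 0.17, limma adjusted p = 2.03e-05). The Ebf2-EGFP+ libraries were the lower pair at every stage. From E11.5 to E15.5 the change of Kcnj10 did not pass in either population, but that in Ebf2-EGFP- cells passed with median-of-ratios scaling (0.48, limma adjusted p = 0.00819) and without E15.5 Ebf2-EGFP- replicate 2 (0.56, limma adjusted p = 0.00641). The 7 radial glia markers were lower in the Ebf2-EGFP+ libraries at the same stages (summed 200 to 220 against 1035 to 1552 FPKM at E13.5), as were 3 pericyte markers (0.889 to 1.03 against 16 to 19.4 FPKM), and their part in the Kcnj10 result was not tested.

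**Figure D4:**
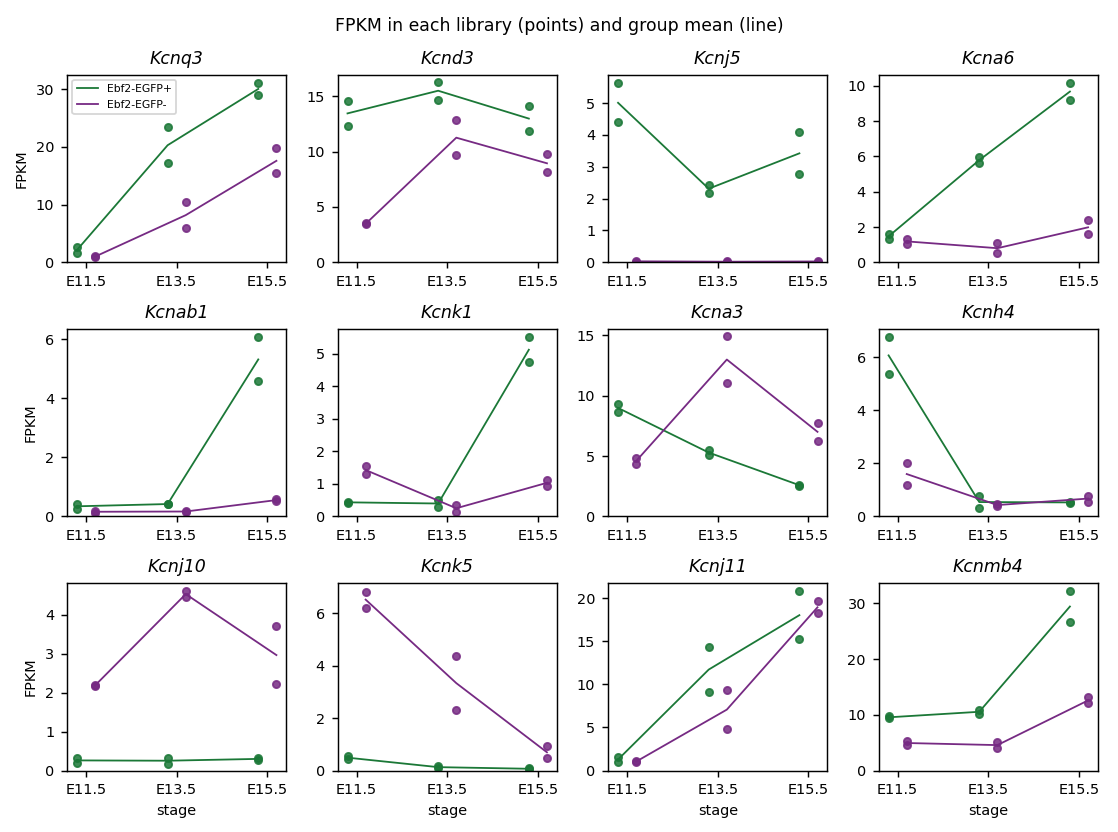
FPKM (vertical axis, from 0) of 12 potassium channel genes by stage, with points for the libraries and lines through the 2-library means of Ebf2-EGFP+ (green) and Ebf2-EGFP- (purple) cells. Kcnab1 and Kcnk1 are high in the E15.5 Ebf2-EGFP+ pair alone (4.58 to 6.07 and 4.75 to 5.51 FPKM), and the lines of Kcna3 cross between E11.5 and E13.5.

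The 2-pore-domain channels, which carry the background current of resting cells, were divided. Of 6 members, 2 were higher and 2 lower in the Ebf2-EGFP+ population at E11.5 (36.8% and 44.9% of all genes). At E15.5, 4 were higher and 1 lower (25.8% and 31.6% of all genes). Kcnk5 (TASK-2, an acid-sensitive background channel) was at 0.441 and 0.543 FPKM in the Ebf2-EGFP+ libraries and 6.83 and 6.22 FPKM in the Ebf2-EGFP- libraries at E11.5 (-2.33 ± 0.2, limma adjusted p = 1.66e-06) and at 0.17 and 0.0894 FPKM against 4.36 and 2.31 FPKM at E13.5 (-1.9 ± 0.2, limma adjusted p = 1.48e-05). At E15.5 it was at 0.082 and 0.0535 FPKM against 0.925 and 0.466 FPKM (-0.65 ± 0.2, limma adjusted p = 0.0169), still apart, but lost without either Ebf2-EGFP+ library (-0.67 and -0.63) or Ebf2-EGFP- replicate 1 (-0.46, limma adjusted p = 0.134). The fall of Kcnk5 in Ebf2-EGFP- cells (-2.16 ± 0.2, limma adjusted p = 1.89e-06) was the larger of the pair of falls called in that population. Markers of dividing cells were lower at E15.5 in the same libraries, with a summed 405 to 464 FPKM at E11.5 and 40.3 to 78.4 FPKM at E15.5 over 5 genes. So were 5 meninges or fibroblast markers (107.5 to 126 and 2.61 to 3.51 FPKM) and 3 choroid plexus markers (32.8 to 53.3 and 0.144 to 0.399 FPKM). Further lists fell as well, and others rose, among them the cortical plate or subplate markers. The part of these cell types in the Kcnk5 fall was not tested. Kcnk1 (TWIK-1) was at 0.418 and 0.449 FPKM against 1.55 and 1.3 FPKM at E11.5 (-0.76 ± 0.14, limma adjusted p = 4e-04), at 0.509 and 0.285 FPKM against 0.36 and 0.142 FPKM at E13.5 (0.16 ± 0.14, limma adjusted p = 0.322) and at 5.51 and 4.75 FPKM against 1.13 and 0.937 FPKM at E15.5 (1.59 ± 0.14, limma adjusted p = 6.18e-06). Its order turned between the first and last stage, and the change of the difference was the largest of all members (2.35 ± 0.2, limma adjusted p = 7.41e-06).
Kcnk9 and Kcnk3 encode TASK-3 and TASK-1, which can join in a channel. Kcnk9 was at 1.49 and 4.23 FPKM against 0.104 and 0.182 FPKM at E15.5 (1.66 ± 0.24, limma adjusted p = 0.000181), with a ratio of means of 20.1 that was 10.5 without Ebf2-EGFP+ replicate 2. Its E11.5 difference (0.57 ± 0.24, limma adjusted p = 0.0463) was called but lost in 10 of 16 alternatives, among them the removal of any 1 of the 4 E11.5 libraries (0.54 to 0.60). Kcnk3 was at 1.76 and 1.62 FPKM against 0.0948 and 0.202 FPKM at E13.5 (1.23 ± 0.15, limma adjusted p = 3.6e-05), a ratio of means of 11.4 that was 17.8 without Ebf2-EGFP- replicate 2. Kcnk2 (TREK-1, opened by stretch and lipids) had the highest level of the class at E15.5 and rose in both populations, to 9.8 and 11.3 FPKM against 12.5 and 18.6 FPKM at E15.5, where the Ebf2-EGFP- pair was above the Ebf2-EGFP+ pair without passing (-0.49 ± 0.2, limma adjusted p = 0.0546). That difference of Kcnk2 passed with the replicate number as a block (limma adjusted p = 0.0187), without Ebf2-EGFP- replicate 1 (-0.77, limma adjusted p = 0.0136) and in the fits with the filter on mean FPKM or without trend. The rise of Kcnk2 was larger in Ebf2-EGFP- cells (-1.02 ± 0.29, limma adjusted p = 0.00952 for the change of the difference).

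The BK channel opens to calcium and voltage together and shapes the end of the spike. Both of its genes in the table were higher in the Ebf2-EGFP+ population at all 3 stages (14.6% of all genes) and rose in both populations. Kcnma1, the pore, was at 1.11 and 1.16 FPKM in the Ebf2-EGFP+ libraries and 0.322 and 0.469 FPKM in the Ebf2-EGFP- libraries at E11.5 (0.62 ± 0.21, limma adjusted p = 0.0159), 2.91 and 2.94 FPKM against 0.349 and 0.632 FPKM at E13.5 (1.4 ± 0.21, limma adjusted p = 0.000108) and 3.91 and 5.33 FPKM against 0.938 and 2.04 FPKM at E15.5 (1.2 ± 0.21, limma adjusted p = 0.000528). Kcnmb4, the beta subunit typical of neurons, was at 9.39 and 9.7 FPKM against 5.33 and 4.54 FPKM at E11.5 (0.83 ± 0.16, limma adjusted p = 0.000565) and 32.3 and 26.6 FPKM against 13.1 and 12 FPKM at E15.5 (1.16 ± 0.16, limma adjusted p = 0.000136). All Ebf2-EGFP+ libraries were above all Ebf2-EGFP- libraries of the same stage for both genes, and Kcnmb4 exceeded Kcnma1 in each library. The E11.5 call of Kcnma1 was lost without either Ebf2-EGFP+ library (0.63 and 0.60) or Ebf2-EGFP- replicate 1 (0.54), its E15.5 ratio of means of 3.1 was 4.93 without Ebf2-EGFP- replicate 2, and antisense models cover 10.7% and 20.8% of the exon bases of Kcnmb4.

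SK channels open to calcium alone and give the slow hyperpolarisation after spikes. Their genes were higher in the Ebf2-EGFP+ population at E13.5 (3 of 3, where 32.1% of all genes were higher). At E15.5 limma called 0 of 3, also at an unadjusted p under 0.05 (25.8% of all genes were called higher and 31.6% lower). Kcnn1 was at 17.7 and 17.3 FPKM in the Ebf2-EGFP+ libraries and 5.33 and 5.89 FPKM in the Ebf2-EGFP- libraries at E11.5 (1.49 ± 0.2, limma adjusted p = 3.77e-05) and at 8.08 and 6.69 FPKM against 10.4 and 9.11 FPKM at E15.5 (-0.36 ± 0.2, limma adjusted p = 0.147, and limma adjusted p = 0.0358 with the replicate number as a block). The Ebf2-EGFP+ pair was the higher at E11.5 and the lower at E15.5, where only the blocked fit called it among the alternatives, and Kcnn1 fell in Ebf2-EGFP+ cells (-1.15 ± 0.2, limma adjusted p = 0.000313) and rose in Ebf2-EGFP- cells (0.7 ± 0.2, limma adjusted p = 0.00683). Kcnn2 had its highest level at E13.5, at 20.02 and 21.1 FPKM against 10.1 and 12.9 FPKM (0.8 ± 0.17, limma adjusted p = 0.0015), as did Kcnn3 in Ebf2-EGFP+ cells (4.11 and 5.14 FPKM against 1.44 and 2.35 FPKM, 0.97 ± 0.2, limma adjusted p = 0.000921). The E13.5 call of Kcnn1 (0.52 ± 0.2, limma adjusted p = 0.037) was lost without Ebf2-EGFP+ replicate 2 (0.4, limma adjusted p = 0.188), without Ebf2-EGFP- replicate 1 (0.21, limma adjusted p = 0.363) and, narrowly, without any 1 of the E11.5 libraries.
Kcnt1, the sodium-activated channel, was low in all libraries and higher in the Ebf2-EGFP+ population at each stage. It was at 0.678 and 1.03 FPKM against 0.13 and 0.365 FPKM at E11.5 (0.57 ± 0.16, limma adjusted p = 0.00501), 0.942 and 0.624 FPKM against 0.17 and 0.169 FPKM at E13.5 (0.6 ± 0.16, limma adjusted p = 0.00447) and 1.16 and 1.81 FPKM against 0.164 and 0.207 FPKM at E15.5 (1.06 ± 0.16, limma adjusted p = 0.000184). Kcnt1 did not pass at E11.5 without Ebf2-EGFP+ replicate 2 (0.43) or Ebf2-EGFP- replicate 1 (0.44), and its ratio of means there, 3.45, was 6.56 without Ebf2-EGFP- replicate 2.

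The difference between the populations changed from E11.5 to E15.5 for 22 of the 38 members in the interaction test of the same fit (59.8% of all genes). The signed difference moved toward Ebf2-EGFP+ cells in 8 (32% of all genes) and toward Ebf2-EGFP- cells in 14 (27.7% of all genes), with a median change of -0.24 over the members and 0.17 over all genes. By class, 4 of 5 EAG, ERG and ELK genes moved toward Ebf2-EGFP- cells and none the other way, 3 of 6 2-pore-domain genes moved toward Ebf2-EGFP+ cells and 1 the other way, and of 8 Kv1 to Kv4 genes 3 moved toward Ebf2-EGFP+ cells and 4 the other way. The 2-pore-domain genes that moved toward Ebf2-EGFP+ cells include Kcnk5, which was called lower at E15.5 than at E11.5 in both populations. The fall of the Ebf2-EGFP+ population passed narrowly (-0.48 ± 0.2, limma adjusted p = 0.0487), and its call was lost in 10 of 17 alternatives. The means behind it were low, at 0.492 FPKM at E11.5 and 0.0677 FPKM at E15.5. The Ebf2-EGFP- mean of Kcnk5 was 13.3 times the Ebf2-EGFP+ mean at E11.5 and 10.3 times at E15.5. Neither BK gene passed the interaction test (0.58 ± 0.29 for Kcnma1, limma adjusted p = 0.103, and 0.33 ± 0.23 for Kcnmb4, limma adjusted p = 0.237). Kcnma1 passed with the replicate number as a block (limma adjusted p = 0.0206) and without E15.5 Ebf2-EGFP- replicate 2 (0.91, limma adjusted p = 0.0112).

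**Figure D5:**
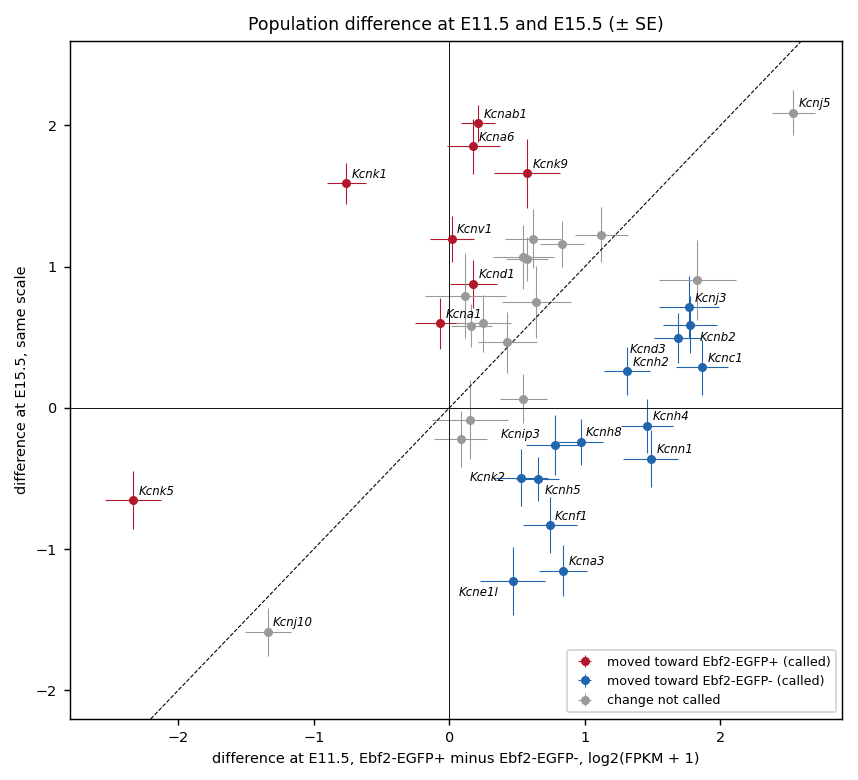
Difference between the populations at E11.5 (horizontal) and E15.5 (vertical) for the 38 genes, Ebf2-EGFP+ minus Ebf2-EGFP- on the log2(FPKM + 1) scale, with bars for the SE and a dashed line of equal differences. By the interaction test the signed difference of red genes (8) moved toward Ebf2-EGFP+ cells and that of blue genes (14) toward Ebf2-EGFP- cells, and Kcna3 (0.84 and -1.15) and Kcnk1 (-0.76 and 1.59) lie in opposite quadrants.

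Partners of these channels were read from a list of 29 genes for proteins that bind, anchor or regulate potassium channels, of which 18 were in the table. At the 3 stages 12, 14 and 11 of the 18 were higher in Ebf2-EGFP+ cells and 2, 2 and 1 were lower, with median differences of 0.86, 0.96 and 0.69, beside -0.19, -0.19 and -0.11 over all genes (of which 36.8%, 32.1% and 25.8% were called higher and 44.9%, 43.5% and 31.6% lower). Ank3, which encodes the ankyrin that anchors Kv7 channels at the axon initial segment, was at 53.9 and 56.5 FPKM in the Ebf2-EGFP+ libraries and 6.33 and 5.78 FPKM in the Ebf2-EGFP- libraries at E11.5 (3 ± 0.17, limma adjusted p = 9.32e-08) and at 66.1 and 63.9 FPKM against 33.9 and 36.5 FPKM at E15.5 (0.87 ± 0.17, limma adjusted p = 0.0011). Ank3 rose in Ebf2-EGFP- cells (2.36 ± 0.17, limma adjusted p = 2.63e-07), and its change in Ebf2-EGFP+ cells did not pass (0.23 ± 0.17, limma adjusted p = 0.223). Abcc8, the sulfonylurea receptor that surrounds the Kcnj11 pore, was at 0.17 and 0.591 FPKM against 0.142 and 0.196 FPKM at E11.5 and 11.54 and 9.7 FPKM against 10.01 and 11.8 FPKM at E15.5, and rose in both populations (3.09 ± 0.3, limma adjusted p = 3.09e-06, and 3.35 ± 0.3, limma adjusted p = 1.23e-06). Abcc9, the other sulfonylurea receptor and one known from pericytes, was lower in the Ebf2-EGFP+ population at all 3 stages, at 0.0667 and 0.0735 FPKM against 0.987 and 0.834 FPKM at E11.5 (-0.84 ± 0.18, limma adjusted p = 0.00118). Lrrc55, an auxiliary subunit of BK, was at 2.39 and 2.69 FPKM against 0.349 and 0.289 FPKM at E11.5 (1.42 ± 0.16, limma adjusted p = 8.36e-06) and 10.8 and 9.42 FPKM against 2.36 and 1.8 FPKM at E15.5 (1.85 ± 0.16, limma adjusted p = 4.57e-06), higher in Ebf2-EGFP+ cells as Kcnma1 and Kcnmb4 were. Cntn2, an adhesion protein that clusters Kv1 channels on axons, rose in Ebf2-EGFP- cells from 3.1 and 3.2 FPKM to 265 and 298 FPKM (6.09 ± 0.26, limma adjusted p = 1.12e-08). In Ebf2-EGFP+ cells Cntn2 was already at 99.65 and 106 FPKM at E11.5 and rose to 232 and 208.5 FPKM (1.09 ± 0.26, limma adjusted p = 0.00259). Its difference between the populations at E15.5 did not pass (-0.35 ± 0.26, limma adjusted p = 0.26). Cntnap2, the partner of Cntn2, fell in both populations (-2.1 ± 0.2 and -1.9 ± 0.2). Among proteins of the synaptic scaffold that bind Kv1 channels, Dlg4 and Dlg2 were higher in the Ebf2-EGFP+ population at all 3 stages, whereas Dlg1 was lower at E11.5 (11.7 and 14.3 FPKM against 25.5 and 25.6 FPKM, -0.93 ± 0.16, limma adjusted p = 0.000199).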

How the data were processed

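The authors sequenced polyadenylated RNA of the sorted populations and, per the submitters' processing notes, used TopHat2 2.0.8b, Cufflinks 2.2.0 and build mm10. They deposited FPKM per gene and library for 4859 coding genes that they had called differential. The fold ratios, p-values and q-values of the authors' own comparisons in that deposited table, and the lncRNA table, were not used here. Strand is not stated. Read totals per library are not given in the sources used here, so depth gives no interval for a value. Libraries were grouped by their labels. The 12 libraries were fitted as 6 groups with limma 3.58.1 (R 4.3.3) on log2(FPKM + 1), with a trend on mean expression, over all 4859 genes, with two-sided tests and Benjamini-Hochberg adjustment within each comparison. The code was tested on simulated data.

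Members and lists (channel classes, partners and 13 marker lists) were chosen with earlier results of these data known. Named in full were, per comparison and direction, the 4 members with the largest called difference and groups apart, plus 1 member of each subfamily not otherwise named. Others are examples chosen after their values were seen. Same-numbered libraries of a stage deviated together (correlations 0.431, 0.534 and 0.431), so the numbers were treated as pairs in 1 alternative. Other alternatives were a pseudocount of 0.1, median-of-ratios scaling, genes with a mean of at least 1 FPKM, moderation without trend and each library left out. Gene positions and exon overlaps came from GENCODE on GRCm38, and promoter windows from RefSeq. Results of 3 genes that the rule names are not reported here, although they stayed in the fit.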

Additional observations from a re-analysis of the deposited data

Results flagged for a closer look

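In 22 of 38 members the difference between the populations (Ebf2-EGFP+ minus Ebf2-EGFP-, log2(FPKM + 1)) changed from E11.5 to E15.5 by the limma interaction test, at an adjusted p under 0.05, where 59.8% of all genes in the table changed. The signed difference moved toward Ebf2-EGFP+ cells by 2.35 for Kcnk1, 1.80 for Kcnab1, 1.68 for Kcnk5, 1.67 for Kcna6, 1.18 for Kcnv1, 1.08 for Kcnk9, 0.70 for Kcnd1 and 0.67 for Kcna1. It moved toward Ebf2-EGFP- cells by a change of -1.99 for Kcna3, -1.85 for Kcnn1, -1.70 for Kcne1l, -1.58 for Kcnh4, -1.58 for Kcnc1, -1.57 for Kcnf1, -1.21 for Kcnh8, -1.20 for Kcnd3, -1.19 for Kcnb2, -1.16 for Kcnh5, -1.06 for Kcnj3, -1.05 for Kcnh2, -1.04 for Kcnip3 and -1.02 for Kcnk2. The calls for Kcna1, Kcnd1, Kcnk9, Kcnk5 and Kcnj3 were each lost under 1 or more alternatives, that for Kcna1 under 8. For Kcnk5 the Ebf2-EGFP- mean was 13.3 times the Ebf2-EGFP+ mean at E11.5 and still 10.3 times at E15.5. Both populations were below 1 FPKM by then, where the log2(FPKM + 1) scale understates a ratio.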

How the results depend on the processing

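Of 167 calls of a member in a comparison, 128 held under every alternative run, 39 were lost in 1 or more, and none changed sign. A pseudocount of 0.1 lost 8, median-of-ratios scaling 3, the filter on mean FPKM 2 and moderation without trend 3. The most losses came from the fits with 1 library left out. With a pseudocount of 0.1, 5 members in place of 8 had a difference that moved toward Ebf2-EGFP+ cells by the interaction test. With the replicate number as a block (pairing within stages), 0 of 167 calls were lost, and 3 differences named as not passing did pass (Kcnk2 and Kcnn1 between populations at E15.5 and the interaction of Kcnma1). Members called higher and lower with the block were 25 and 3, 25 and 6, and 22 and 8 at the 3 stages and 11 and 16 in the interaction test, and the counts of stage changes were the same. Scaling moved the median of all genes by 0.191, 0.191, 0.134, 0.142 and 0.224 (log2) in the 5 comparisons of populations and stages, and members called higher and lower were then 24 and 3, 26 and 4, and 23 and 6 at the 3 stages. At each of the 3 stages, fewer members were called higher in Ebf2-EGFP+ cells than in the main fit whenever 1 library of that stage was left out. Fewer members fell in Ebf2-EGFP- cells without E11.5 Ebf2-EGFP- replicate 2 or E15.5 Ebf2-EGFP- replicate 1. Differences that had not passed turned sign for Kcnj11 at E15.5 (0.12 after scaling, -0.29 to 0.13 with 1 library left out), for Kcnip3 at E15.5 (-0.56 to 0.031 with 1 library left out) and for the changes in Ebf2-EGFP+ cells of Kcnb2 (0.0014 after scaling, -0.50 to 0.14), Kcnd3 (0.18 after scaling, -0.16 to 0.068), Kcnc1 (-0.029 to 0.29) and Kcnj10 (-0.027 to 0.12). The cause was not tested. Libraries left out left 1 library in their group, which was assumed to vary like the others.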
